A study of Homo sapiens with 6 samples.

Results

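The 38 nuclear genes described here encode the proteins that keep, copy, transcribe and translate mitochondrial DNA (mtDNA). They were chosen by name, as rows whose gene symbol belongs to a list of factors for mtDNA replication, transcription, RNA processing and stability, and mitochondrial translation. All 38 were found among 35130 gene names, and all 38 were abundant enough to be tested. RNA-seq was made from SK-N-BE(2) cells, an established human neuroblastoma line with amplified MYCN whose labels give bone marrow as its tissue. One group of 3 libraries came from dishes that received DMSO, the solvent, and the other group of 3 libraries from dishes that received 1 µM NEN. Both groups were harvested at 24 h. NEN is given by its abbreviation alone. Work on neuroblastoma uses this abbreviation for niclosamide ethanolamine, which uncouples mitochondrial respiration from ATP synthesis, and that identity is background here. All libraries come from 1 line, and although the labels speak of biological replicates, they do not say how the dishes were separated. The p-values therefore measure the spread between these 6 libraries.

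Human mtDNA is a small circle that carries genes for a few respiratory chain proteins and for the rRNAs and tRNAs needed to make them, while every protein that handles it is imported from the cytosol. Both strands are transcribed as long precursors by POLRMT with TFAM and TFB2M. The tRNAs that lie between most of the genes are then cut out, which frees the mRNAs and rRNAs, and the mRNAs are held stable by RNA-binding proteins until a dedicated ribosome with its own initiation, elongation and release factors reads them. These factors support respiration in all nucleated cells, and MYC family proteins are known to promote the expression of many of them in tumours.

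Transcripts of this machinery were lower on balance after NEN, with 13 of the 38 genes falling and 3 rising. The falls included TFAM, TFB2M, FASTKD5, SLIRP, GFM1 and MTRF1L, each to between 57.7% and 70.9% of its DMSO mean, and FASTKD3 with the largest fold change, to 45.4%. The rises were in MTIF3, POLRMT and GRSF1, to between 115% and 144% of the DMSO mean. Calls are from limma on log2(TPM + 1), where TPM is a transcript abundance scaled by transcript length and library total, with Benjamini-Hochberg adjustment over all 12576 genes whose mean reached 1 TPM and a threshold of 0.05. Among all genes tested, 30.0% were called, 16.5% as falling and 13.5% as rising. Among the 38 factors 42.1% were called, 34.2% as falling and 7.89% as rising. The median fold change (NEN minus DMSO, on the log2 scale, here and throughout) was -0.19 for the factors and -0.02 for all tested genes, and 29 of 38 factors lay below 0 against 52.4% of all tested genes. All NEN libraries lay below all DMSO libraries for 17 factors and above them for 5, where the shares over all tested genes were 25.0% and 21.8%. Of the 13 falls, 6 held in all 17 alternative settings (TFAM, TFB2M, FASTKD5, SLIRP, GFM1 and MTRF1L), and of the 3 rises, 1 did (MTIF3). Without NEN replicate 2 the falls numbered 6 and without NEN replicate 3 they numbered 8. The rises numbered 1 without DMSO replicate 2 and without each of the 3 NEN libraries. These counts describe a list that was chosen with earlier results of these data known and carry no test of the list.

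**Figure D1:**
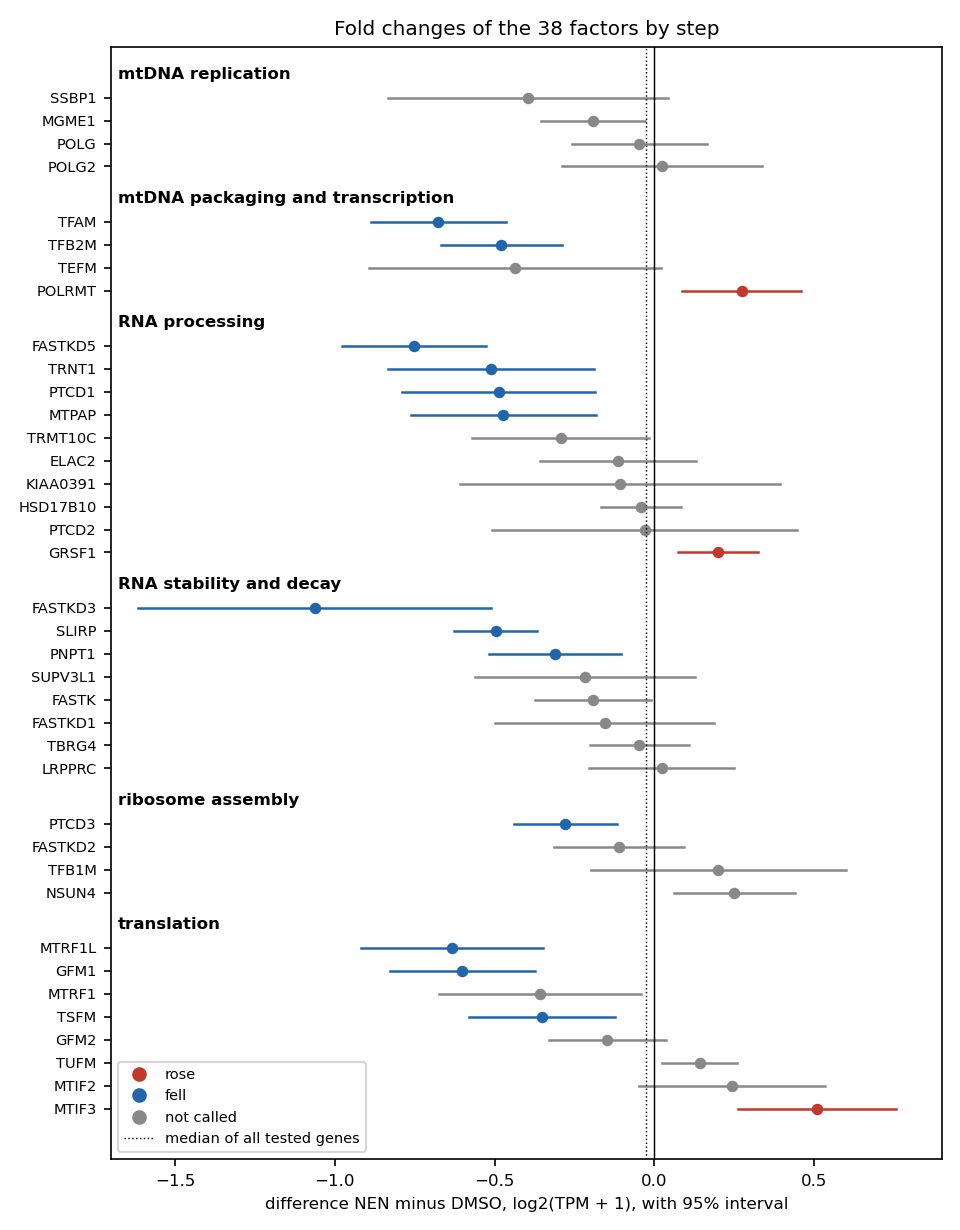
Fold change (NEN minus DMSO, log2(TPM + 1)) of each of the 38 factors with its 95% interval from limma, grouped by step. Blue points fell, red points rose and grey points were not called, and the dotted line is the median of all tested genes (-0.02). The replication group holds no coloured point.

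**Figure D2:**
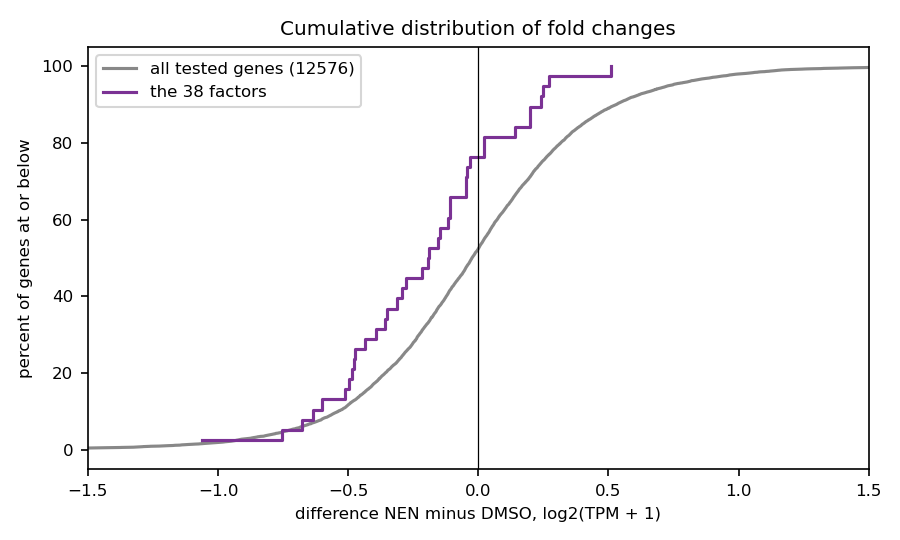
Cumulative percent of genes (vertical axis) at or below each fold change on the log2 scale (horizontal axis), for the 38 factors and for all 12576 tested genes. The curve of the factors lies to the left over most of the range and crosses 0 at 76.3%, against 52.4% for all tested genes.

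The transcripts of the line's own cell type were abundant in all 6 libraries. The 9 neuroblastoma markers given here, among them HAND2, DBH and MYCN, summed to between 5482 and 7031 TPM. The 10 blood and marrow markers summed to between 0.150 and 2.30 TPM, and CD3E, MPO and HBB were listed at 0 in every library. The 8 stromal markers summed to between 321.2 and 413.4 TPM, nearly all of it THY1. Of these markers, 6 of the neuroblastoma genes rose and 0 fell, PDGFRB and ACTA2 rose and THY1 fell, and their part in the values of the 38 factors was not tested. In a bulk sample, fewer cells of one kind and less RNA per cell cannot be told apart. The 13 mRNAs encoded by mtDNA, the product of the machinery described here, made up 11.6%, 9.57% and 9.53% of listed TPM with DMSO and 7.49%, 8.32% and 8.56% with NEN. With each library rescaled to its nuclear genes, 13 factors fell and 2 rose, and over all tested genes 2262 fell and 1530 rose.

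The enzymes that copy mtDNA were not called. POLG, the catalytic subunit of the mitochondrial DNA polymerase, was at 23.5, 24.3 and 26.4 TPM with DMSO and 25.9, 23.3 and 22.6 TPM with NEN. The groups overlapped, with a fold change of -0.05 and a 95% interval from -0.26 to 0.16 (limma adjusted p = 0.727). POLG shares 458 exon bases with FANCI on the opposite strand. FANCI was at 67.95, 91.47 and 76.39 TPM with DMSO and 49.41, 49.35 and 54.42 TPM with NEN. The part of FANCI reads in the POLG values was not tested. POLG2, the accessory subunit that clamps POLG to its template, had a fold change of 0.02 with an interval from -0.29 to 0.34. MGME1, an exonuclease that trims DNA ends during replication, lay lower in all 3 NEN libraries (33.5 to 36.9 TPM against 39.6 to 40.7 TPM) but missed the threshold (-0.19 ± 0.07 SE, adjusted p = 0.0777). SSBP1, which coats single-stranded mtDNA at the fork, was at 209.8, 355.4 and 337.2 TPM with DMSO and 220.7, 239.3 and 208.8 TPM with NEN. DMSO replicate 1 sat at the level of the NEN libraries and apart from the other DMSO libraries. The fold change of SSBP1 was -0.40 ± 0.19 (adjusted p = 0.155), and without DMSO replicate 1 it was -0.64 with adjusted p = 0.00215.

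Among genes of mtDNA packaging and transcription, 2 of 4 fell and 1 rose, where 16.5% of all tested genes fell and 13.5% rose. TFAM, the protein that wraps mtDNA into nucleoids and bends its promoters, was at 49.5, 49.9 and 52.9 TPM with DMSO and 28.0, 34.3 and 32.2 TPM with NEN. No NEN library reached the lowest DMSO library, and TFAM fell by 0.68 ± 0.09 (limma adjusted p = 0.00223). TFB2M, which opens the promoter for the polymerase, was at 34.0, 33.6 and 31.8 TPM with DMSO and 23.2, 25.1 and 22.1 TPM with NEN. It too was lower in every NEN library, and fell by 0.48 ± 0.08 (adjusted p = 0.00521). POLRMT, the polymerase itself, was at 30.6, 26.9 and 28.2 TPM with DMSO and 34.3, 36.3 and 33.5 TPM with NEN. All NEN libraries lay above all DMSO libraries, and POLRMT rose by 0.27 ± 0.08 (adjusted p = 0.0384). After correction for transcript length and GC content its fold change was 0.02 (adjusted p = 0.871). The POLRMT call was also lost without DMSO replicate 2 (0.23) or 3 (0.27) and without NEN replicate 1 (0.28), 2 (0.24) or 3 (0.30). TEFM, which lets the polymerase read on through long transcripts, was at 9.90, 11.1 and 8.88 TPM with DMSO and 9.65, 6.63 and 5.49 TPM with NEN. NEN replicate 1 lay within the DMSO range, and the fold change of -0.44 ± 0.19 (adjusted p = 0.134) became -0.64 (adjusted p = 0.0353) without it.

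POLRMT, TFB2M and TFB1M, a relative of TFB2M that modifies ribosomal RNA, carried the core of the binding motif of NRF1, a regulator of nuclear genes for mitochondria, in their promoter windows, as did MTPAP, which fell. The windows of these 3 are shown to place the core among genes of transcription and their relative. Each window runs from 250 bases before to 50 after the annotated start, 5′ to 3′ along the gene, from RefSeq on GRCh38.p14. Capitals mark GCGCATGC or its reverse complement and, in POLRMT, also the ETS core that the GABP factor binds, CCGGAAGT. The windows are POLRMT at chr19:633488-633787 (minus strand), TFB2M at chr1:246566212-246566511 (minus strand) and TFB1M at chr6:155314435-155314734 (minus strand).
POLRMT: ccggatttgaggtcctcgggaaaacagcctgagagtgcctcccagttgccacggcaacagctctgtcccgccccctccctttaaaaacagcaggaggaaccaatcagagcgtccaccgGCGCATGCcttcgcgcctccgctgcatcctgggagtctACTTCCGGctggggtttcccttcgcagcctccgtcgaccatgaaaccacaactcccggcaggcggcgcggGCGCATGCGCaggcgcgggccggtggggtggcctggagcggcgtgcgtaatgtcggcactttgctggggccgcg
TFB2M: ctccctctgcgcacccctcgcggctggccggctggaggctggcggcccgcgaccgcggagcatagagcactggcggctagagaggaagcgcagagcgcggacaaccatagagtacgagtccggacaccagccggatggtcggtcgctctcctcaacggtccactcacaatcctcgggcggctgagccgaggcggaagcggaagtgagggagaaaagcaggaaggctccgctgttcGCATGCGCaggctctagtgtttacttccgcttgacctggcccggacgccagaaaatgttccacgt
TFB1M: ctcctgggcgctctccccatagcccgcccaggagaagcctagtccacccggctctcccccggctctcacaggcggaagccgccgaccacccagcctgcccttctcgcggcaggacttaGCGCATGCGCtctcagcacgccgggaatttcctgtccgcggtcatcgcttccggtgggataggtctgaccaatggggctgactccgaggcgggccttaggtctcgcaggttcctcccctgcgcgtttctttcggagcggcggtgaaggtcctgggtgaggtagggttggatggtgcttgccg
The TFB2M match began 15 bases before the start. POLRMT had matches 132, 24 and 22 bases before it, the nearer 2 overlapping as 1 site read on both strands, and TFB1M had 1 such double-strand site at 132 and 130 bases before the start. The windows of TFAM and TEFM, the other genes of packaging and transcription, held no match to this core. Whether genes that hold this core differ in response was not tested.

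Among factors that cut, trim and tail the precursor RNA, 4 of 10 fell and 1 rose. The shares over all tested genes were 16.5% and 13.5%. FASTKD5, which is needed to free mRNAs that have no tRNA at their border, was at 27.0, 26.6 and 23.6 TPM with DMSO and 14.6, 15.9 and 14.1 TPM with NEN. The groups were well apart and FASTKD5 fell by 0.75 ± 0.10 (limma adjusted p = 0.00187). TRNT1, which adds the CCA end to tRNAs, was at 10.9, 13.2 and 10.7 TPM with DMSO and 8.85, 7.85 and 6.82 TPM with NEN, without overlap (-0.51 ± 0.14, adjusted p = 0.0293). MTPAP, the mitochondrial poly(A) polymerase, was at 12.01, 12.999 and 11.8 TPM with DMSO and 9.98, 7.73 and 8.11 TPM with NEN, again without overlap (-0.47 ± 0.12, adjusted p = 0.0266). The TRNT1 call was lost without DMSO replicate 2 (-0.42) or 3 (-0.56) or NEN replicate 2 (-0.51) or 3 (-0.43). The MTPAP call was lost without DMSO replicate 1 (-0.49), 2 (-0.43) or 3 (-0.50) or NEN replicate 2 (-0.41) or 3 (-0.44).

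PTCD1, a pentatricopeptide repeat protein that binds mitochondrial RNA, was at 12.2, 9.99 and 13.2 TPM with DMSO and 8.16, 8.47 and 7.64 TPM with NEN (-0.49 ± 0.13, adjusted p = 0.0275 by limma). Its sequence is shared with a read-through gene, ATP5J2-PTCD1, which was at 5.07, 6.32 and 6.12 TPM with DMSO and 7.20, 7.45 and 8.24 TPM with NEN. The sum of both was 17.6 ± 1.6 TPM with DMSO and 15.7 ± 0.3 TPM with NEN (SD, n = 3 libraries each). Fitted as that sum, the fold change was -0.15 with adjusted p = 0.268, so the fall of PTCD1 is uncertain. PTCD1 also shares 919 exon bases with BUD31 on the opposite strand, the longest such overlap of the 38. BUD31 was at 184.8, 187.4 and 174.2 TPM with DMSO and 158.2, 154.9 and 174.8 TPM with NEN, and was not called (-0.16 ± 0.06, limma adjusted p = 0.0974). The part of these reads in the PTCD1 values was not tested. Shorter opposite-strand overlaps join TRNT1 with CRBN, TSFM with AVIL and SLIRP with SNW1, partners that were not called, and GFM1 with LXN, which was too low to be tested. FASTKD5 shares 132 same-strand bases with UBOX5, which rose by 0.43 ± 0.13. The PTCD1 call was also lost without DMSO replicate 1 (-0.46) or 3 (-0.41) and without NEN replicate 1 (-0.49), 2 (-0.52) or 3 (-0.45).

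GRSF1, which gathers newly made RNA in granules beside the nucleoids, went the other way. It was at 94.2, 94.2 and 99.9 TPM with DMSO and 111.3, 111.0 and 108.8 TPM with NEN, so that the groups were separate but close (0.20 ± 0.05, limma adjusted p = 0.0294). That rise was lost without DMSO replicate 2 (0.18) and without NEN replicate 1 (0.19), 2 (0.19) or 3 (0.21). The 3 subunits of mitochondrial RNase P, which cuts tRNA 5′ ends, were not called. HSD17B10, its dehydrogenase subunit, was among the most abundant factors at 238.4 ± 4.4 and 231.6 ± 11 TPM, and its 95% interval ran from -0.17 to 0.08. The methyltransferase subunit TRMT10C had -0.29 ± 0.12 (adjusted p = 0.103), and -0.40 with adjusted p = 0.0306 without DMSO replicate 1. The nuclease KIAA0391, also called PRORP, had -0.11 ± 0.21. ELAC2, which cuts the opposite tRNA end, had -0.12 ± 0.10, and PTCD2, another pentatricopeptide repeat protein, -0.03 ± 0.20. Their groups overlapped.

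Of the factors that hold or destroy finished mitochondrial RNA, 3 of 8 fell, against 16.5% of all tested genes. LRPPRC and SLIRP form a complex that coats mRNAs and protects them from decay, and in these libraries only one of them was called. SLIRP, the most abundant of the 38 transcripts, was at 541.1, 560.1 and 529.7 TPM with DMSO and 389.9, 364.3 and 401.7 TPM with NEN. Every NEN library lay well under every DMSO library, and SLIRP fell by 0.50 ± 0.06 (limma adjusted p = 0.00122). LRPPRC was at 222.2, 215.8 and 187.8 TPM with DMSO and 233.2, 187.7 and 215.5 TPM with NEN. These groups overlapped fully, with a fold change of 0.02 and a 95% interval from -0.21 to 0.25 (adjusted p = 0.886).

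FASTKD3, a FASTK family protein that acts on particular mitochondrial mRNAs, had the largest fold change of the 38. It was at 16.1, 11.8 and 12.8 TPM with DMSO and 8.81, 5.35 and 4.31 TPM with NEN, a fall of 1.06 on the log2 scale (± 0.24, limma adjusted p = 0.0145). The highest NEN library lay under the lowest DMSO library, though both groups were spread. FASTKD3 shares exon bases with MTRR on the opposite strand, which fell by 0.50 ± 0.13. Without NEN replicate 2 the fold change was -1.001 and the call was lost, narrowly (limma adjusted p = 0.05005). The FASTK family has 6 members here, of which FASTKD5 and FASTKD3 fell and 4 were not called. FASTK had -0.19 ± 0.08 with all NEN libraries below all DMSO libraries (adjusted p = 0.105), and passed the threshold after length and GC correction (-0.40, adjusted p = 0.00656). FASTKD1 had -0.16 ± 0.15, TBRG4, also known as FASTKD4, -0.05 ± 0.07 and FASTKD2 -0.11 ± 0.09. All 6 members had values below 0, between -1.06 and -0.05, where 52.4% of all tested genes lay below 0. The groups of FASTKD1, TBRG4 and FASTKD2 overlapped, and each of these genes changed sign under 1 of the 17 alternative settings.

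The mitochondrial degradosome pairs PNPT1, an exoribonuclease, with the helicase SUPV3L1. PNPT1 was at 34.4, 33.3 and 29.7 TPM with DMSO and 27.4, 24.4 and 26.1 TPM with NEN, a non-overlapping fall of 0.31 ± 0.09 (limma adjusted p = 0.0352). That call was lost without DMSO replicate 1 (-0.27) or 2 (-0.29) and without NEN replicate 1 (-0.35), 2 (-0.27) or 3 (-0.31). SUPV3L1 had -0.22 ± 0.15 (adjusted p = 0.303), with NEN values of 37.6 to 45.7 TPM inside or below the DMSO range of 41.4 to 59.7 TPM.

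Factors that build the mitochondrial ribosome held 1 fall among 4, where 16.5% of all tested genes fell. PTCD3, a pentatricopeptide protein of the small subunit, was at 66.9, 66.4 and 62.9 TPM with DMSO and 51.9, 52.1 and 57.5 TPM with NEN. It was lower in each NEN library and fell by 0.28 ± 0.07 (limma adjusted p = 0.0216), a call lost without DMSO replicate 2 (-0.27) or NEN replicate 1 (-0.25) or 2 (-0.26). TFB1M, which methylates the small-subunit rRNA, was at 11.7, 15.5 and 11.9 TPM with DMSO and 17.4, 16.3 and 11.9 TPM with NEN, with overlap (0.20 ± 0.17, adjusted p = 0.413). NSUN4, an rRNA methyltransferase that joins the subunits, was higher in all 3 NEN libraries (20.4 to 22.1 TPM against 17.4 to 18.1 TPM) and just missed the threshold (0.25 ± 0.08, adjusted p = 0.0543). It passed after median-ratio scaling (0.28, limma adjusted p = 0.0442) and quantile normalization (0.27, adjusted p = 0.0478). NSUN4 also passed with plain limma settings and after length and GC correction. FASTKD2, which assembles the large subunit, was not called, as given above.

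Of the 8 translation factors, 3 fell (37.5%) and 1 rose (12.5%), against 16.5% and 13.5% of all tested genes. MTIF3, which helps place the mRNA and initiator tRNA on the small subunit, was at 31.7, 28.3 and 29.3 TPM with DMSO and 43.6, 37.3 and 48.0 TPM with NEN. All NEN libraries were above all DMSO libraries, and MTIF3 rose by 0.51 ± 0.11 (limma adjusted p = 0.0112). MTIF3 shares exon bases with GTF3A on the opposite strand, which fell by 0.22 ± 0.07. MTIF2, the other initiation factor, had 0.24 ± 0.12 (adjusted p = 0.183), with DMSO replicate 2 at 29.2 TPM inside the NEN range of 28.5 to 30.6 TPM. TUFM, the elongation factor that delivers tRNAs, was at 242.0, 229.9 and 247.7 TPM with DMSO and 269.2, 261.0 and 263.9 TPM with NEN. It lay higher in every NEN library by a small step and missed the threshold (0.14 ± 0.05, adjusted p = 0.0714), which it passed after quantile normalization (0.21, adjusted p = 0.0223). TSFM, which recharges TUFM with GTP, was at 60.6, 52.4 and 66.3 TPM with DMSO and 47.8, 48.1 and 43.6 TPM with NEN, a non-overlapping fall of 0.35 ± 0.10 (adjusted p = 0.0327). The TSFM call was lost without DMSO replicate 1 (-0.34) or 3 (-0.27) and without NEN replicate 1 (-0.37), 2 (-0.38) or 3 (-0.31).

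GFM1 and GFM2 are related G-type elongation factors with separate tasks, GFM1 moving the ribosome along the mRNA and GFM2 taking it apart after release. GFM1 was at 74.7, 66.2 and 62.5 TPM with DMSO and 49.2, 41.1 and 42.8 TPM with NEN. Every NEN library lay under every DMSO library, and GFM1 fell by 0.60 ± 0.10 (limma adjusted p = 0.00443). GFM2 was at 35.2, 34.5 and 33.0 TPM with DMSO and 28.8, 31.2 and 32.6 TPM with NEN, which do not overlap but nearly touch (-0.15 ± 0.08, adjusted p = 0.196). Of the release factors, MTRF1L, which ends translation at the standard stop codons, was at 27.5, 29.4 and 21.7 TPM with DMSO and 16.6, 15.8 and 16.8 TPM with NEN. Its NEN libraries were tightly grouped under the DMSO range and it fell by 0.63 ± 0.12 (adjusted p = 0.00820). MTRF1, the least abundant of the 38, was at 6.73 ± 0.42 and 5.05 ± 0.63 TPM (SD, n = 3 libraries each), without overlap and not called (-0.36 ± 0.13, limma adjusted p = 0.0859).

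The promoter windows of GFM1, GFM2 and MTRF1L each held the ETS core near the start. They are shown to place that core, and all 3 are translation factors whose NEN libraries lay under their DMSO libraries. TSFM and MTRF1, translation factors that were lower in the same way, held no match to it. Capitals mark CCGGAAGT or its reverse complement in the RefSeq windows on GRCh38.p14, GFM1 at chr3:158644277-158644576 (plus strand), GFM2 at chr5:74767068-74767367 (minus strand) and MTRF1L at chr6:153002660-153002959 (minus strand).
GFM1: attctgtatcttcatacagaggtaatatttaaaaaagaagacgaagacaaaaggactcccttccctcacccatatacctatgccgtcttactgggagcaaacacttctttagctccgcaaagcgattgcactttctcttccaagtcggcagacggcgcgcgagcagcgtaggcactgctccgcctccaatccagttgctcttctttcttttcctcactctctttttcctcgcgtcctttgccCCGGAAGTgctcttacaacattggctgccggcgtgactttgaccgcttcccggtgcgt
GFM2: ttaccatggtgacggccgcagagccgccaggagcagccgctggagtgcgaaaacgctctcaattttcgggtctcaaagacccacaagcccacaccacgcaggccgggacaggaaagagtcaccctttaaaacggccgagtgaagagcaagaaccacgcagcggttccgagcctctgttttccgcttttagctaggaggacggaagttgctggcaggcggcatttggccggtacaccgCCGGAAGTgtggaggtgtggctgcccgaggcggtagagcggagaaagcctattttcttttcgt
MTRF1L: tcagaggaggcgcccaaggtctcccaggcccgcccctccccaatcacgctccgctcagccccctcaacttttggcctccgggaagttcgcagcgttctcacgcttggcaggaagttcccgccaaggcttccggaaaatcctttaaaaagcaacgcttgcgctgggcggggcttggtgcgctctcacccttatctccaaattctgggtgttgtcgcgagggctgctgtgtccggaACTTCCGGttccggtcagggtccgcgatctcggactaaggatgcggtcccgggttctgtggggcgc
The matches began 8, 13 and 16 bases before the start in GFM1, GFM2 and MTRF1L. TUFM, also a translation factor, held the core 8 bases before its start and went the other way. All its NEN libraries lay above all its DMSO libraries.

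Over all members, 37 of 38 had a promoter window and FASTKD5 did not. The ETS core was found in 10 of 37 (27.0%), against 9.40% of the 9125 windows of tested genes and 4.44% of all 27305 windows. It was in 3 of the 12 windows of genes that fell and in 7 of the 25 others. The NRF1 core was found in 4 of 37 (10.8%), against 5.94% for tested genes and 3.27% for all windows, in 2 of 12 that fell and 2 of 25 others. The CRE sequence TGACGTCA, bound by CREB and ATF factors, was in 2 of 37 windows, against 3.48% for tested genes. The E-box CACGTG, to which MYC and MYCN bind, and TGATGNAA, a core of C/EBP-ATF elements, had 0 matches in the 37 windows, against 10.4% and 1.51% for tested genes. Both strands were searched, and no 2 motifs overlapped. A match is a string of letters in a short window and does not show that a factor binds there.

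**Figure D3:**
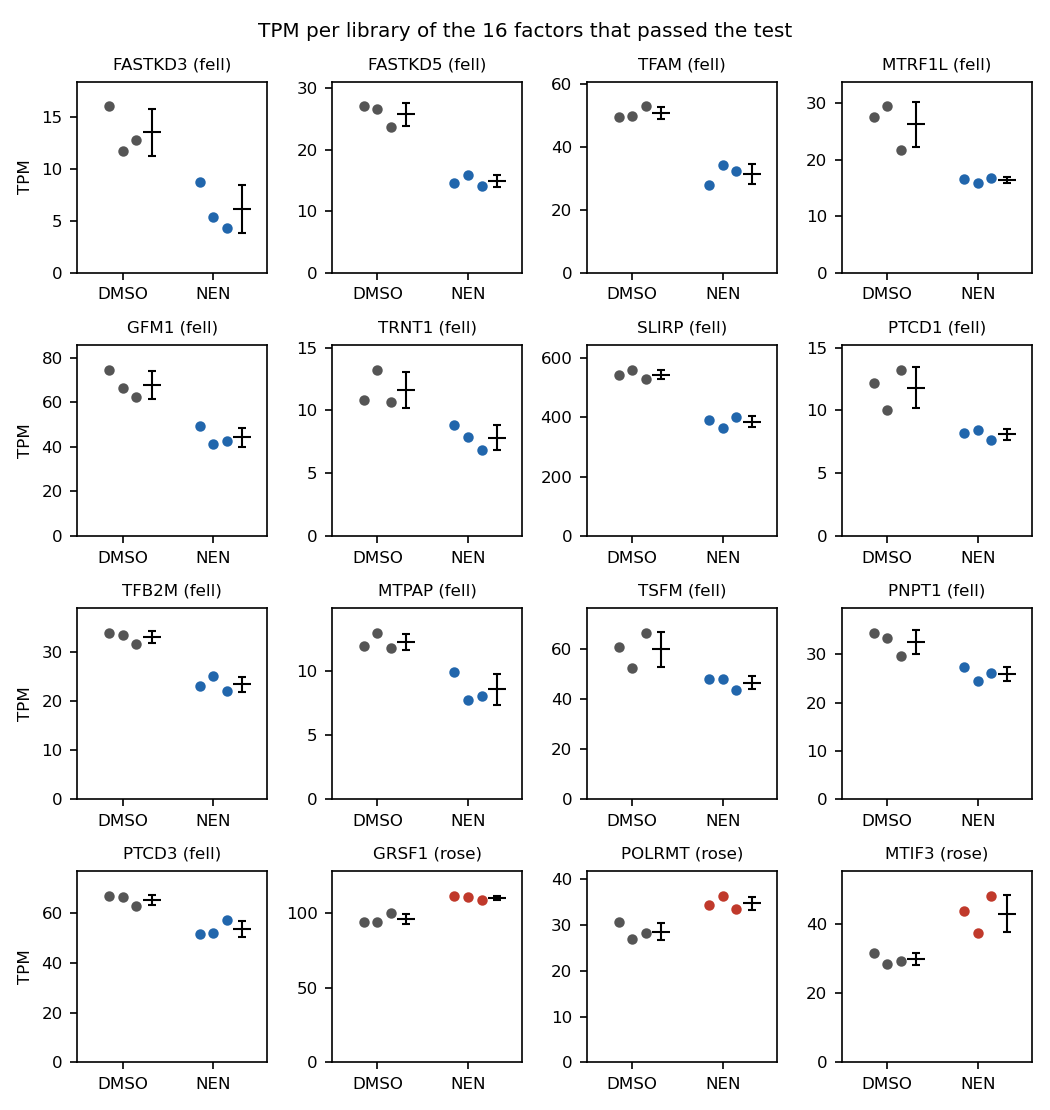
TPM in each library (points, DMSO left and NEN right) of the 16 factors that passed the test, with the group mean and SD (bars, n = 3 libraries) to the right of the points, each vertical axis starting at 0. In every panel the 3 NEN points lie on one side of the 3 DMSO points.

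Ratios between partners were compared within each library for 6 pairs. The log2 ratio of TFB1M to TFB2M was -1.29 ± 0.21 with DMSO and -0.61 ± 0.22 with NEN (SD, n = 3 libraries each), a difference of 0.68 in which no NEN library overlapped a DMSO library. The ratio of LRPPRC to SLIRP went from -1.38 ± 0.11 to -0.86 ± 0.11, a difference of 0.52, also without overlap. The ratio of GFM1 to GFM2 went from 0.96 ± 0.09 to 0.51 ± 0.21, a difference of -0.45, again without overlap. Each of these 3 differences had an exact two-sided permutation p of 0.10, which is the smallest that 3 against 3 libraries can give, and 0.20 after adjustment over the 6 pairs, so none of them passed the threshold. The other differences were smaller, with 0.28 for MTRF1 to MTRF1L (exact permutation p = 0.20), -0.07 for POLG to POLG2 (p = 0.70 by the same exact test) and -0.09 for PNPT1 to SUPV3L1 (p = 0.60 by the same exact test), and their groups overlapped.

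**Figure D4:**
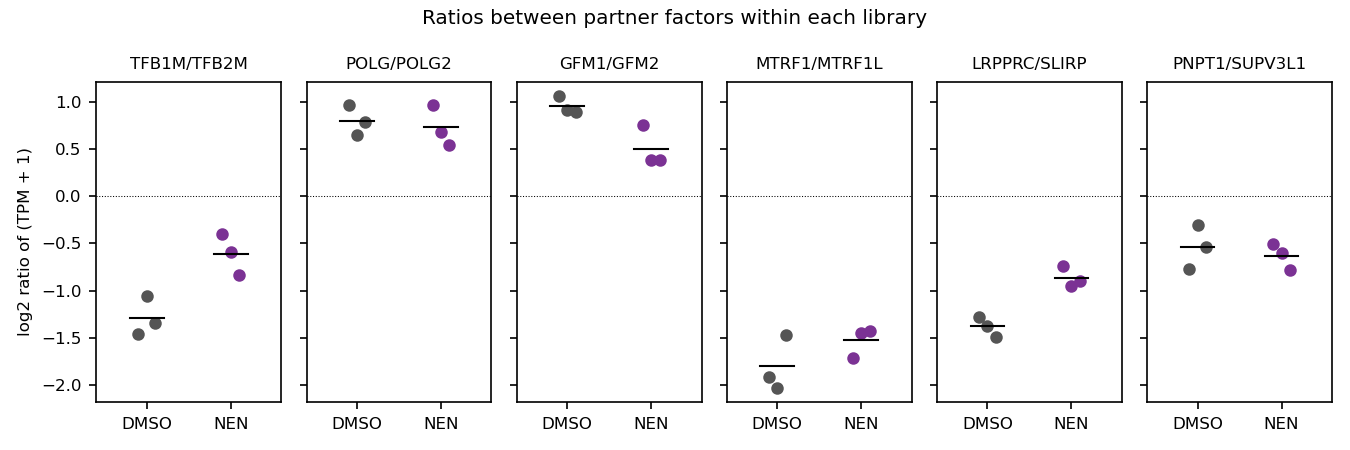
Log2 ratio of (TPM + 1) between partner genes within each library (points) with the group mean (line), for DMSO and NEN. The TFB1M/TFB2M and LRPPRC/SLIRP ratios lie higher and the GFM1/GFM2 ratio lower in all 3 NEN libraries than in any DMSO library.

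TPM is scaled by transcript length, but these levels were not corrected here for GC content or shared exons, so comparison between genes is rough. Levels in DMSO spanned from 6.73 TPM for MTRF1 to 543.7 TPM for SLIRP. After SLIRP came SSBP1 (300.8 ± 79.3 TPM), TUFM (239.9 ± 9.1 TPM), HSD17B10 (238.4 ± 4.4 TPM) and LRPPRC (208.6 ± 18.3 TPM). The libraries of SSBP1, TUFM and HSD17B10 overlapped, so their order lies within the spread, while every DMSO library of LRPPRC lay below every one of TUFM and HSD17B10. The polymerases of DNA and RNA, POLG at 24.7 ± 1.5 TPM and POLRMT at 28.6 ± 1.8 TPM, were far lower. The 38 genes together summed to 2643, 2749 and 2684 TPM with DMSO and 2406, 2304 and 2344 TPM with NEN, so that each NEN library was lower than each DMSO library. The SLIRP means account for 543.7 TPM of the DMSO sums and 385.3 TPM of the NEN sums. The sum over translation factors was 499.0, 476.3 and 492.5 TPM with DMSO and 490.0, 468.6 and 481.8 TPM with NEN, which overlap.

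Other genes of the same pathways were taken from a list of 76, of which 75 were tested. In this list 20 fell (26.7%) and 5 rose (6.67%), against 16.5% and 13.5% of all tested genes. The median log2 difference was -0.18, against -0.02 for all tested genes. Falls numbered 6 of 17 for replication and nucleotide supply, 6 of 16 for ribosome assembly and 2 of 5 for transcription and its termination. They numbered 5 of 24 for RNA modification and decay and 1 of 13 for translation. FTSJ2, also known as MRM2, which methylates the large-subunit rRNA, fell by 1.05 ± 0.08, from 49.7 ± 2.8 to 23.4 ± 1.1 TPM. NSUN2, an RNA methyltransferase that also acts outside mitochondria, fell by 0.82 ± 0.06, DNA2, a nuclease-helicase of nuclear and mitochondrial DNA, by 0.84 ± 0.08, and TRMU, which thiolates mitochondrial tRNAs, by 0.75 ± 0.08. The 4 rises with the smallest adjusted p were NOA1, a GTPase of ribosome assembly (0.65 ± 0.09), RPUSD3, a pseudouridine synthase (0.60 ± 0.10), TOP1MT, the mitochondrial topoisomerase (0.52 ± 0.09), and YBEY, an endoribonuclease of rRNA maturation (0.40 ± 0.11). By limma, the adjusted p of these 8 ran from 0.000323 (FTSJ2) to 0.0261 (YBEY). The YBEY call was lost without DMSO replicate 2 (0.42) or 3 (0.36) or NEN replicate 1 (0.35) or 3 (0.37).

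These factors make 13 mRNAs from mtDNA, of which 8 fell and 0 passed as rising, at a median of -0.41 on the log2 scale and between -0.95 (MT-ATP8) and -0.07 (MT-ND3). Over all tested genes, 16.5% fell and 13.5% rose, at a median of -0.02. Their summed level was 107951, 89269 and 88806 TPM with DMSO and 69599, 77320 and 79562 TPM with NEN, with DMSO replicate 1 the highest. How the nuclear factors and the mtDNA mRNAs relate across libraries was not tested, since both differ between the same 3 and 3 libraries.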

How the data were processed

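RNA from 3 DMSO and 3 NEN libraries was quantified as TPM by the authors, with kallisto and hg19 named in the submitters' processing notes; the sources used here do not give versions, read depth, strand setting or which of poly(A) capture and rRNA removal was applied. Each deposited TPM table lists 35130 names (2 repeated, 27 resembling dates), which sum to between 929054 and 933500 TPM. TPM keeps no depth, so no counting interval could be given.

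Tests were run, for genes averaging 1 TPM or more, with limma 3.58.1 (R 4.3.3) on log2(TPM + 1), a moderated linear model with trend and robust settings, two-sided, with Benjamini-Hochberg adjusted p-values over 12576 genes. Errors are SE for fold changes and SD over 3 libraries for levels. Fold changes on this scale understate changes of low genes. Ratios of partners were compared by exact permutation. The script was tested on simulated data. Figures were drawn with matplotlib 3.10.9.

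The members, the wider list of 76 genes (6 found under older symbols) and the marker lists were chosen with earlier results of these data known. One gene of the neuroblastoma marker list is not reported here. Genes past the threshold, plus TFAM, POLRMT, POLG, TFB1M, TFB2M, LRPPRC and TUFM, were to be given per library, and from the wider list the 4 with the smallest adjusted p in each direction; values per library of other members were added after they were seen. Promoter windows are from RefSeq on GRCh38.p14, a build other than the one of the deposited values. In GENCODE 29, 18 of the 38 genes share exon bases with another listed gene, 15 of them on the opposite strand, and reads of such pairs cannot be told apart without strand. A further 10 listed pseudogenes of these genes reached at most 0.326 TPM. The 5 tested and 5 untested histone transcripts were examined because most transcripts of replication-dependent histones lack poly(A) tails. Whether each of those listed lacks a tail was not tested. Together these histone transcripts summed to between 50.6 and 76.0 TPM. Most of this sum was HIST1H2BK (35.4 to 58.7 TPM), followed by HIST2H2AC (7.41 to 14.4 TPM). No other histone of the list passed 4.98 TPM in any library, and HIST1H1B, HIST1H1D and HIST1H4H stayed below 1 TPM in all. Alternatives were the pseudocount, filter, scaling, limma settings, replicate block and each library left out, with 2 added after seeing the data: a correction for length and GC content (loess, span 0.3, values for 91.5% of tested genes and all 38 factors) and PTCD1 summed with its read-through.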

Additional observations from a re-analysis of the deposited data

How the results depend on the processing

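No fold change of a called factor changed sign under any of the 17 alternatives. Without the filter on low values, 8 factors fell and 1 rose, and 3 genes of the wider list rose, with TRNT1, MTPAP, PTCD1, PNPT1, TSFM, POLRMT and GRSF1 losing their calls. Over all genes in that setting, 1545 fell and 1236 rose. Other settings ended the calls of TSFM (median-ratio scaling, quantile normalization, plain limma), PTCD3 (quantile normalization, length and GC correction), PNPT1 and GRSF1 (plain limma) and POLRMT (plain limma, nuclear rescaling, length and GC correction). After quantile normalization 5 of the 38 factors rose, as did 1866 of the 12576 tested genes. With libraries left out in turn, 6 to 11 factors fell and 1 to 3 rose, 11 to 20 genes of the wider list fell and 3 to 5 rose, and over all tested genes 1391 to 1911 fell and 1061 to 1544 rose. The POLG to POLG2 difference ranged from -0.191 to 0.024 and reversed to 0.014 without DMSO replicate 1 and 0.024 without NEN replicate 3. The PNPT1 to SUPV3L1 difference ranged from -0.212 to 0.023, reversing without DMSO replicate 2. Same-numbered libraries did not deviate together (correlations 0.01, -0.01 and -0.03). With so few libraries, these correlations cannot show whether same-numbered dishes were handled together. With the replicate block 7 factors fell and 1 rose, and 3 genes of the wider list rose. Falls made up 55.4% of the calls over all tested genes in that setting. The cause of these shifts was not tested. Depth behind the TPM values is unknown, which limits the low genes most.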
